A study of Mus musculus with 6 samples.

Results

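The genes described here are 10 negative-feedback and target genes of ERK signaling, chosen by name, though with earlier results of these data known. They are the dual-specificity phosphatase genes Dusp4, Dusp5, Dusp6 and Dusp7 and the Sprouty genes Spry1, Spry2 and Spry4. The Sprouty-related gene Spred1 and the ETS transcription factor genes Etv4 and Etv5 complete the set. Each of the 10 was among the 16894 genes listed, and each passed the filter on low values that left 14776 genes for testing. They were measured by bulk RNA-seq in fibroadipogenic progenitors (FAPs), mesenchymal cells of skeletal muscle that can become fibroblasts or adipocytes, isolated from male and female C57BL/6 mice of 3 to 6 months. The comparison was between 3 libraries of control (non-senescent) FAPs and 3 of senescent FAPs, which had been given etoposide, a topoisomerase poison that leaves breaks in DNA, at 20 μM for 48 h and had then been kept for 5 days in normal medium. The growth medium described for these cells held 10 ng/mL of recombinant human bFGF, a ligand that signals through ERK, along with fetal bovine serum, and it was not described as different between the groups. The senescent state was drug-induced in culture, the cells had been selected with magnetic beads for SCA-1 and against CD45, CD31 and α7-integrin, and neither the medium of the control cultures during the drug treatment nor the number of animals behind each culture was given in the sources used here. P-values therefore measure the spread between these cultures.

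ERK is the last kinase of a cascade that runs from growth factor receptors through Ras, Raf and MEK. Active ERK switches on genes whose products turn the pathway down again, so the transcripts of such genes are widely read as a measure of recent ERK output. DUSP4 and DUSP5 are nuclear phosphatases, whereas DUSP6 and DUSP7 work in the cytoplasm, and they remove the activating phosphates from ERK (DUSP4 also from other MAP kinases). Sprouty and SPRED proteins act higher up, between the receptors and Raf, and ETV4 and ETV5 are transcription factors of the PEA3 group that are induced by FGF signaling in many tissues.

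Some of these genes carry short elements before their start sites through which the pathway is known to act. In RefSeq windows of 300 bases on GRCm38.p6, from 250 before to 50 after a start site, 7 of the 10 genes had 8 windows, and these were searched on both strands. The repressor Capicua (CIC), which ERK signaling inactivates, binds octamers written here as TGAATGAA, TGAATGGA, TCAATGAA and TCAATGGA. They occurred in 3.84% of all 32851 windows and in those of Dusp6 and Spry2. The CArG box, bound by serum response factor, occurred in 1.63% of all windows and, among the 8, in that of Dusp5, where 2 boxes stood end to end. The ETS core CCGGAAG (8.86% of all windows), the cyclic AMP response element TGACGTCA (1.79%) and the AP-1 site TGANTCA (7.81%) were in none of the 8. The stretches with matches are shown for Dusp6, Spry2 and Dusp5, the genes in which a match was found. Each is 100 bases long and ends right before the start of the gene in GENCODE M21, on the strand of the gene, with the matches in capitals.
Dusp6, plus strand, chr10:99263131-99263230, CIC octamer in capitals: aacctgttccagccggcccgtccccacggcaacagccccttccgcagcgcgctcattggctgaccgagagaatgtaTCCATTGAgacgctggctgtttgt
Spry2, minus strand, chr14:105896820-105896919, CIC octamer in capitals: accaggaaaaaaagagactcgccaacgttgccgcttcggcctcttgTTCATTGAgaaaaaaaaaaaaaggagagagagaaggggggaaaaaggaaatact
Dusp5, plus strand, chr19:53529009-53529108, CArG boxes in capitals: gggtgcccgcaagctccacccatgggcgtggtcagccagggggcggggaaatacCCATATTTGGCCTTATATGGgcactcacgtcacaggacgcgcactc
The Dusp6 match lay 24 to 17 bases before the start site, and a second copy of the same octamer began 2 bases into the transcript. The Spry2 match lay 54 to 47 bases before the start. The capitals mark letters only, and binding was not measured here.

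The deposited values are CPM, a count unit relative to library depth, after edgeR's scaling between libraries. Reads on genes numbered 41412179 to 59912520 per library, and the lowest number of reads behind any of the 10 genes was 179, for Spry4 in control replicate 1. Cdkn1a, which encodes the cell cycle inhibitor p21, was at 259 to 336 CPM in control and 1017 to 1060 CPM in senescent FAPs, and the proliferation gene Mki67 at 101 to 247 and 9.27 to 19.0 CPM. Cdkn2a, the locus of p16, overlapped between the groups (56.5 to 129 and 63.2 to 104 CPM). The FAP markers Pdgfra (126 to 254 CPM) and Ly6a, which encodes SCA-1 (220 to 678 CPM), were present in each library. Control replicate 2 stood apart from the other controls in several of the genes described here, and results for the 10 genes and the counts of the pathway lists are therefore given with and without it. Because the library was singled out by these same values, p-values without it follow in part from that choice. They are descriptive.

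With the threshold at 0.05 for limma's adjusted p (Benjamini-Hochberg), 3 of the 10 genes were lower in senescent FAPs (Dusp6, Dusp7 and Spry1) and 2 were higher (Spry4 and Etv5), while 5 did not pass (Dusp4, Dusp5, Spry2, Spred1 and Etv4). Of all genes tested, 24.3% were lower and 21.8% higher by the same rule, so 5 of 10 is close to the 46.1% called overall. The median log2 fold change of the 10 was −0.02, against −0.03 over all genes tested. The study's own volcano plot used a stricter threshold, with p below 0.01 before adjustment and a change of more than 1 on the log2 scale. Of the 10 genes, 1 (Dusp6) was past it, a share close to the 10.8% of all genes that were (3.9% lower and 6.93% higher). Without control replicate 2 the call list was different: Dusp4, Dusp5 and Spry4 were higher, Dusp6 and Dusp7 lower, and the other 5 did not pass. The high values of Dusp4, Dusp5 and Spry4 in that library were among the reasons for leaving it out. Their calls without it are therefore no separate support for a rise. In 5 of the 10 genes the groups did not overlap, with all controls above in 4 (Dusp6, Dusp7, Spry1 and Spred1) and all senescent libraries above in 1 (Etv5). Of all genes tested, 57.4% did not overlap, with the controls above in 30.9% and the senescent libraries above in 26.5%. The call of Dusp6 and that of Dusp7 held under each of the 17 alternatives tried. Division by library totals without edgeR's scaling, which moved the median of all genes to 0.17, gave 3 genes higher and 2 lower. In bulk libraries, fewer cells that express a gene and less RNA of it per cell cannot be told apart.

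**Figure D1:**
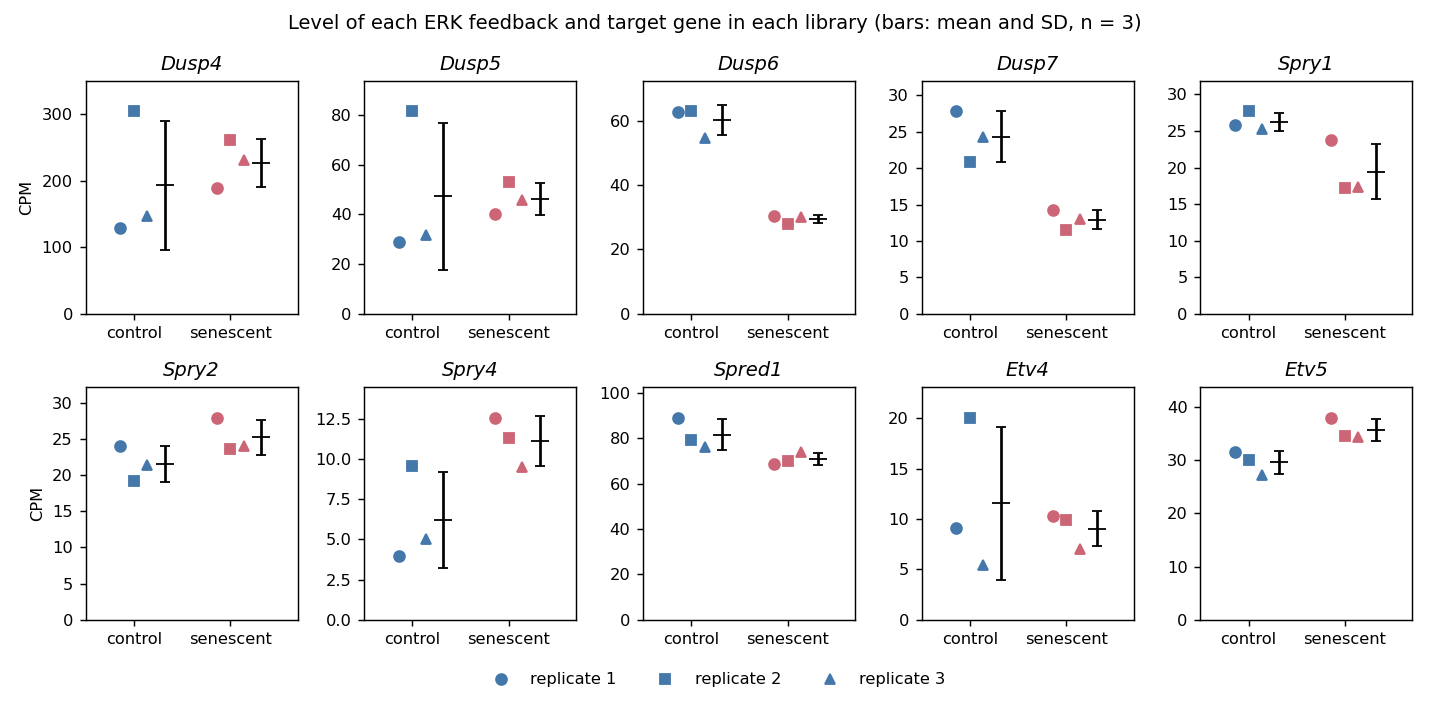
CPM of each of the 10 genes (y axes, each from 0) in the 3 control and 3 senescent libraries, with marker shapes for the replicate number and black bars for the mean and SD. Dusp6 and Dusp7 are lower in each senescent library, and control replicate 2 (squares) is far above the other controls for Dusp4, Dusp5, Spry4 and Etv4.

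Dusp6 encodes the cytoplasmic phosphatase that is most specific for ERK. It lies on chromosome 10 (99263231 to 99267489, plus strand, GENCODE M21). Its level was 62.7, 62.8 and 54.7 CPM in the control libraries (replicates 1, 2 and 3, in this order throughout) and 30.5, 27.9 and 29.9 CPM in the senescent libraries. The groups were thus far apart and each was tight. The mean went from 60.1 ± 4.69 to 29.4 ± 1.36 CPM (SD, n = 3 each), and the gene fell by 1.02 on the log2(CPM + 0.5) scale (standard error 0.09, 95% interval −1.22 to −0.81, limma adjusted p = 2.53e-04). Leaving out each library in turn gave −1.08 to −0.98, with −0.98 also without control replicate 2, and the same-numbered cultures differed by −1.03, −1.16 and −0.86. Across the alternatives the change was between −1.08 and −0.81, the last with division by library totals.

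Dusp7, the other cytoplasmic phosphatase of the set, moved beside it. On chromosome 9 (106368632 to 106375724, plus strand), it was at 27.8, 20.8 and 24.3 CPM in the control and 14.2, 11.5 and 13.1 CPM in the senescent libraries, again without overlap. It fell by 0.88 (standard error 0.13, limma adjusted p = 0.00190), and with each library left out the value lay between −0.99, without control replicate 2, and −0.78.

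The nuclear phosphatase genes of the set did not follow. Dusp4, on chromosome 8 (34807297 to 34819894, plus strand), had 129, 305 and 147 CPM in the control libraries and 189, 261 and 232 CPM in the senescent ones. Each senescent library was above control replicates 1 and 3 and below control replicate 2. The log2 fold change was 0.33 with a 95% interval of −0.37 to 1.03 (limma adjusted p = 0.399). Without control replicate 2, which was singled out by values such as these, it was 0.71 (limma adjusted p = 0.00392).

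Dusp5, on chromosome 19 (53529109 to 53542431, plus strand), is an inducible phosphatase of ERK in the nucleus, and its libraries stood in the same order. It had 28.8, 81.5 and 31.5 CPM in the control and 40.1, 52.9 and 45.7 CPM in the senescent libraries. The means were nearly equal, 47.3 ± 29.7 and 46.2 ± 6.44 CPM (SD, n = 3 each). On the log2 scale the difference was 0.13 (95% interval −0.71 to 0.96, limma adjusted p = 0.793), and it was 0.60 (limma adjusted p = 0.00548) without control replicate 2. Its sign was negative without control replicate 1 (−0.14) or control replicate 3 (−0.08) and, on reads recovered from the CPM values, in edgeR's quasi-likelihood test (−0.00576).

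Set against Dusp6 within each library, both nuclear genes were relatively higher in senescent FAPs. Most of this was the fall of Dusp6 (log2 fold change −1.02), as Dusp4 (0.33) and Dusp5 (0.13) were not called themselves. Such a ratio is unaffected by a factor that multiplies a whole library. For each read of Dusp6 there were 2.05, 4.85 and 2.69 reads of Dusp4 in the control libraries and 6.21, 9.36 and 7.76 in the senescent libraries, so the groups did not overlap. The difference in the log2 ratio was 1.35 (p = 0.1 by a two-sided exact permutation test, which with 3 libraries against 3 cannot give less, and 0.2 after Benjamini-Hochberg adjustment over the 6 ratios tested), and 1.69 without control replicate 2. For Dusp5 over Dusp6 the ratio was 0.459, 1.30 and 0.577 in control and 1.32, 1.90 and 1.53 in senescent libraries, where the highest control is only just below the lowest senescent one. The difference in that log2 ratio was 1.14 (exact permutation p = 0.1, adjusted 0.2), and it ranged from 0.84 without control replicate 1 to 1.58 without control replicate 2. Dusp7 over Dusp6 was 0.331 to 0.445 in control and 0.414 to 0.467 in senescent FAPs, a difference of 0.13 in the log2 ratio (exact permutation p = 0.7, adjusted 0.7). It was −0.00353 without control replicate 2.

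Per kb of exon, the level of Dusp4 was above that of each of the other 9 genes in both groups, at 70.5 ± 35.3 CPM per kb in control and 83.0 ± 13.2 CPM per kb in senescent FAPs (SD, n = 3 each). Dusp4 made up 54.0% to 65.2% of the summed level of the 4 phosphatase genes per kb in control and 69.6% to 73.8% in senescent libraries. The share of Dusp6 went from 11.8% to 23.0% in control libraries to 6.90% to 9.80% in senescent ones. In control FAPs, Dusp6 came next with 19.2 ± 1.5 CPM per kb, and its range overlapped that of Dusp5 (19.1 ± 12.0). In senescent FAPs, Dusp6 at 9.39 ± 0.435 CPM per kb ranked below Dusp5 (18.7 ± 2.60), Spry2 (12.1 ± 1.14) and Spred1 (10.4 ± 0.420), whose ranges did not touch one another or that of Dusp6, and it overlapped only Etv5 (8.66 ± 0.508). Spry4 had the lowest mean in each group, with 1.30 ± 0.625 and 2.34 ± 0.327 CPM per kb, and its range overlapped that of Etv4 in both.

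**Figure D2:**
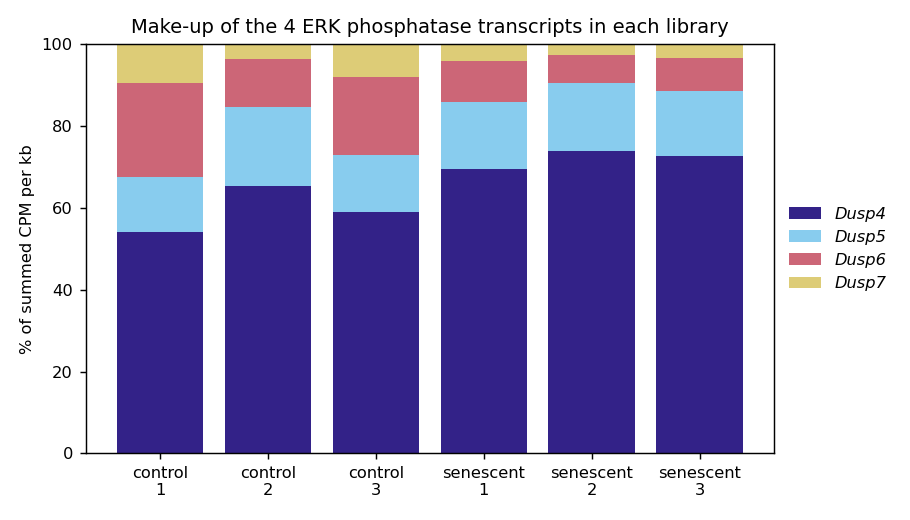
Percent of the summed CPM per kb of exon that each of Dusp4, Dusp5, Dusp6 and Dusp7 took (stacked bars, y axis from 0 to 100%), in each of the 6 libraries. The Dusp4 part is 54.0% to 65.2% in control and 69.6% to 73.8% in senescent libraries, and the Dusp6 part is smaller in each senescent library.

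Among the Sprouty genes, Spry1 fell and Spry4 rose in senescent FAPs, and neither call held under every alternative. Spry1, on chromosome 3 (37639947 to 37644598, plus strand), was at 25.8, 27.7 and 25.2 CPM in control and 23.7, 17.2 and 17.3 CPM in senescent libraries. All 3 senescent values were below the controls, senescent replicate 1 by little. It fell by 0.44 (standard error 0.14, limma adjusted p = 0.0322), and its change without control replicate 2 was −0.40. This call was lost without senescent replicate 2 (adjusted p = 0.118), senescent replicate 3 (0.109) or any of the control replicates (0.0561 to 0.0672). It was also lost with division by library totals (−0.23, adjusted p = 0.193) and with quantile normalization (−0.38, adjusted p = 0.0530).

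Spry4, on chromosome 18, had 3.99, 9.56 and 4.99 CPM in control and 12.6, 11.3 and 9.47 CPM in senescent libraries. Control replicate 2 lay within the senescent range, just above senescent replicate 3. The log2 fold change was 0.88 (standard error 0.29, limma adjusted p = 0.0386) and 1.22 (limma adjusted p = 9.39e-04) without control replicate 2. Leaving out any other library ended the call, with limma adjusted p from 0.0701 without senescent replicate 3 to 0.111 without control replicate 3. The adjusted p in edgeR's quasi-likelihood test was 0.0546. Same-numbered cultures differed by 1.54, 0.23 and 0.86 on the log2 scale, with the smallest difference in the pair that holds control replicate 2.

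Spry2, on chromosome 14 (105891947 to 105896819, minus strand), is a Sprouty gene that growth factors induce in many cell types. It had 24.0, 19.1 and 21.5 CPM in control and 28.0, 23.6 and 24.0 CPM in senescent libraries, and the groups overlapped slightly. The log2 fold change was 0.23 with a 95% interval of −0.04 to 0.49 (limma adjusted p = 0.148), and 0.15 (adjusted p = 0.311) without control replicate 2. With division by library totals it was 0.43 and past the threshold (adjusted p = 0.0147). Relative to Spry2 within each library, Spry1 was at 1.08, 1.45 and 1.18 in control and 0.849, 0.727 and 0.720 in senescent FAPs, without overlap, a difference of −0.67 in the log2 ratio (exact permutation p = 0.1, adjusted 0.2), and of −0.55 without control replicate 2. Spry4 over Spry2 overlapped, at 0.167, 0.50 and 0.233 in control and 0.450, 0.477 and 0.394 in senescent FAPs (difference 0.65 in the log2 ratio, exact permutation p = 0.4, adjusted 0.6). That difference was 0.33 without control replicate 1 and 1.07 without control replicate 2.

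Spred1 encodes a membrane protein that brings neurofibromin to Ras. The gene is on chromosome 2 (117121374 to 117182279, plus strand), and its level moved little, from 89.1, 79.2 and 76.3 CPM in control to 68.6, 69.9 and 74.1 CPM in senescent libraries. The groups did not overlap, but the log2 fold change of −0.20 (95% interval −0.39 to −0.01) did not pass after adjustment (limma adjusted p = 0.0813). It was −0.22 without control replicate 2 and 0.01 with division by library totals.

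Etv5, on chromosome 16 (22381309 to 22439719, minus strand), was higher in senescent FAPs by a small amount. It had 31.5, 30.0 and 27.2 CPM in control and 37.9, 34.4 and 34.3 CPM in senescent libraries, with no overlap. The log2 fold change was 0.26 (standard error 0.09, limma adjusted p = 0.0459). The call was lost on leaving out control replicate 2 (0.27, adjusted p = 0.0536), control replicate 3 (0.20, 0.155) or any senescent replicate (0.22 to 0.29, adjusted p 0.0808 to 0.126). Same-numbered cultures all differed upwards, by 0.26, 0.19 and 0.33.

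Etv4, on chromosome 11 (101769742 to 101785371, minus strand), had 9.11, 20.1 and 5.44 CPM in control and 10.3, 9.85 and 7.04 CPM in senescent FAPs. The senescent libraries lay between the lowest and the highest control. The log2 fold change was −0.16 with a wide interval of −1.11 to 0.79 (limma adjusted p = 0.770), and 0.32 (adjusted p = 0.295) without control replicate 2. Etv5 over Etv4 was 3.46, 1.49 and 5.00 in control and 3.70, 3.49 and 4.87 in senescent libraries, a difference of 0.42 in the log2 ratio (exact permutation p = 0.6, adjusted 0.7), and of −0.05 without control replicate 2.

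**Figure D3:**
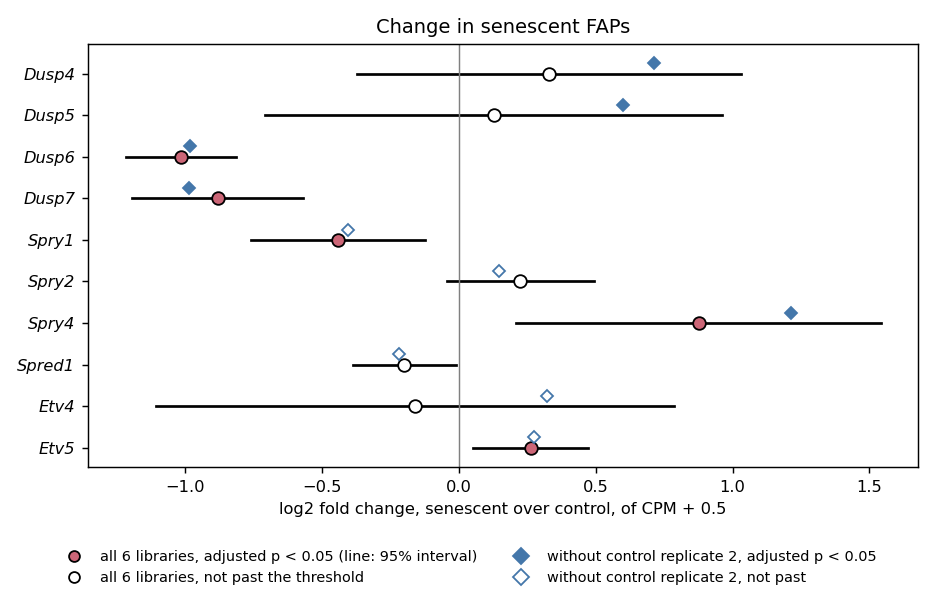
Log2 fold change of CPM + 0.5, senescent over control (x axis), for each of the 10 genes, from all 6 libraries (circles, with 95% intervals) and without control replicate 2 (diamonds), filled where limma's adjusted p was under 0.05. Dusp4 and Dusp5 pass only without that library, whereas Dusp6 and Dusp7 lie near −1 either way.

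The 10 genes divided among themselves by their level in control replicate 2. In that library Etv4 was 2.76, Dusp5 2.70, Dusp4 2.21 and Spry4 2.13 times the mean of control replicates 1 and 3. The other 6 genes were at 0.799 (Dusp7) to 1.08 times (Spry1), with Dusp6 at 1.07 times. Control replicate 2 was the highest control for 6 of the 10 (these 4, Dusp6 and Spry1), as it was for 38.9% of all genes tested. A ratio above 2 was found in 3.86% of all genes tested and in 4 of these 10. For Dusp4, Dusp5 and Etv4, control replicate 2 was also above all 3 senescent libraries, as for 1.44% of all genes tested. Being a description of 1 library, it was given no test.

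Some other genes of the pathway were also raised in that control culture. Among 22 further ERK-induced genes, Ccnd1 was 2.40 and Phlda1 2.14 times the mean of the other controls. Among 18 growth factor genes tested, Pdgfb (3.40 times), Fgf10 (2.85), Ereg (2.73) and Hbegf (2.64) were beyond 2. Pdgfb (0.335, 1.73 and 0.682 CPM in control) and Fgf10 (0.0446, 0.856 and 0.556 CPM, from 2, 45 and 31 reads) were near the floor. Ereg and Hbegf, named after their values were seen, encode ligands of the EGF receptor. Tgfa, which encodes another such ligand, was at 0.661 times, at a low level (0.357, 0.361 and 0.736 CPM in control). Areg, a further one, was under the filter (0.156, 0.837 and 0.251 CPM in control). Hbegf had 115, 359 and 158 CPM in control and 188, 310 and 307 CPM in senescent libraries, the same order of libraries as for Dusp4 and Dusp5. Among the 10 relatives tested, Etv1 was beyond 2 (3.24 times), also at a low level (0.580, 1.41 and 0.287 CPM in control). None of the 28 cascade genes, the 16 receptor genes or the 18 other inhibitors was beyond 2. Mki67 in control replicate 2 (247 CPM) was 2.19 times the mean of the other controls (125 and 101 CPM), and its part in these values was not tested.

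**Figure D4:**
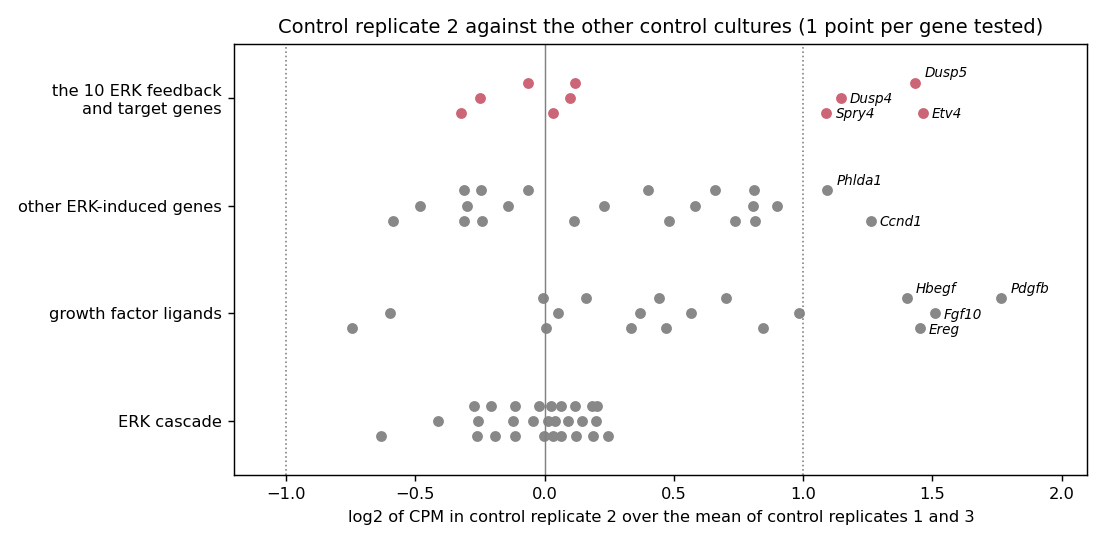
Log2 of the CPM in control replicate 2 over the mean of control replicates 1 and 3 (x axis), 1 point per gene tested, for the 10 genes (red) and for 3 lists of pathway genes (grey), with dotted lines at −1 and 1. Dusp4, Dusp5, Spry4 and Etv4 are beyond 1, the other 6 lie near 0, and no ERK cascade gene is beyond 1.

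Relatives of the 10 genes were examined next, 12 genes of the same families, of which 11 were listed and 10 tested. Of these, 3 fell and 2 rose, with a median log2 fold change of 0.11. The 5 called of 10 are close to the 46.1% called among all genes tested. Dusp9, the third cytoplasmic ERK phosphatase gene, had 12.9, 19.9 and 13.4 CPM in control and 5.44, 6.74 and 7.0 CPM in senescent libraries and fell by 1.19 (limma adjusted p = 0.00215), as Dusp6 and Dusp7 had. Dusp8 (−0.67, adjusted p = 0.0406) and Dusp16 (−0.30, adjusted p = 0.0299), phosphatases that act mainly on JNK and p38, were lower too. Etv1, the third PEA3 gene, went from 0.758 ± 0.581 to 2.65 ± 0.425 CPM (SD, n = 3 each; log2 fold change 1.41, limma adjusted p = 0.00866), and Spred3 from 13.6 ± 1.14 to 21.3 ± 1.58 CPM (0.63, adjusted p = 0.00301). Dusp1, an immediate early gene for a nuclear phosphatase (−0.27), Dusp3 (0.37), Dusp10 (0.30), Dusp14 (0.40) and Spred2 (−0.09) did not pass. Without control replicate 2, Dusp1 was at −0.44 (limma adjusted p = 0.00205), Dusp3 at 0.51 (0.00284) and Dusp14 at 0.48 (0.0333). Dusp2 was under the filter at 0.108 to 0.635 CPM. With the replicate number as a block, 5 rose and 3 fell, and with division by library totals 4 rose and 1 fell. Without control replicate 2 there were 4 higher and 2 lower, and without control replicate 3 or senescent replicate 2 or 3 there was 1 lower.

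Upstream, 9 of the 18 growth factor ligand genes tested rose and 3 fell, with a median log2 fold change of 0.54. Of all genes tested, 21.8% were higher and 24.3% lower. Among those that rose, Fgf1, Fgf10, Pdgfb and Tgfa were low in control, with means of 0.663, 0.486, 0.916 and 0.485 CPM. Kitl, which encodes stem cell factor, had 13.2 ± 2.55 CPM in control and 43.2 ± 7.14 CPM in senescent FAPs (SD, n = 3 each; 1.68, limma adjusted p = 4.02e-04), and Fgf1 rose by 2.09, from 0.335 to 0.989 CPM in control libraries to 3.16 to 5.06 CPM in senescent ones. Fgf2, named after its values were seen because its human product was in the medium, rose by 1.02 (limma adjusted p = 0.0107), from 79.3, 158 and 96.0 to 184, 222 and 248 CPM. Pdgfc, a PDGF receptor ligand, fell by 0.98 and Pdgfa by 0.40. With division by library totals 10 rose and 1 fell, and without any 1 senescent replicate 1 was lower. There were 11 higher and 2 lower without control replicate 2. The count higher was 6 with the filter at 2 CPM. It was also 6 without control replicate 1, control replicate 3, senescent replicate 2 or senescent replicate 3.

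Of the 16 receptor tyrosine kinase genes tested, 2 rose and 3 fell, with a median log2 fold change of 0.21. The 5 called of 16 stand beside 46.1% called among all genes tested. Egfr, the EGF receptor, went from 161 ± 17.2 to 255 ± 13.5 CPM (SD, n = 3 each; 0.67, limma adjusted p = 0.00143) and the collagen receptor gene Ddr2 rose by 0.50. Erbb2 fell by 0.82 and Fgfr2 by 0.65, while Fgfr1, at 370 to 453 CPM in control and 450 to 496 CPM in senescent libraries, was not called (0.22, adjusted p = 0.105). Division by library totals gave 8 higher and 3 lower, quantile normalization 4 and 3, and without control replicate 2 there were 5 higher and 4 lower.

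In the cascade itself, 18 of 28 genes did not pass, 4 rose and 6 fell, with a median log2 fold change of 0.03. Here 10 of 28 were called, beside 46.1% of all genes tested. The docking protein genes Gab2 (0.72, limma adjusted p = 8.90e-04) and Gab1 (0.60) rose, and the Ras gene Nras fell by 0.44 (limma adjusted p = 0.00356). Mapk3, which encodes an ERK kinase, had a log2 fold change of 0.17 and did not pass (limma adjusted p = 0.144). With division by library totals 10 rose and 2 fell, with quantile normalization 5 and 4, and without senescent replicate 2 or 3 there were 3 lower. There were 3 higher and 7 lower without control replicate 2.

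Among the 22 other ERK-induced genes, 7 fell and 2 rose, with a median log2 fold change of −0.18. That is 9 called of 22, beside 46.1% of all genes tested. Ccnd1, which encodes cyclin D1, had 78.0, 193 and 82.6 CPM in control and 409, 476 and 570 CPM in senescent FAPs (2.15, limma adjusted p = 0.00180). The AP-1 gene Fosl1 rose by 0.39, only just past the threshold (limma adjusted p = 0.0497). Myc went the opposite way, from 61.0 ± 8.35 to 25.8 ± 5.11 CPM (SD, n = 3 each; −1.24, limma adjusted p = 8.74e-04), and the immediate early gene Ier3 fell by 0.67. Ccnd1 is often read together with Phlda1, Epha2, Epha4 and several of the 10 genes as a score of ERK output. Unlike Ccnd1, Phlda1 (0.11), Epha2 (0.25) and Epha4 (0.51) did not pass. Without control replicate 2, Epha4 was at 0.73 (limma adjusted p = 0.00663) and Epha2 at 0.38 (0.106). With the replicate number as a block 4 rose and 8 fell, with division by library totals 6 rose and 4 fell, and with quantile normalization 4 rose and 6 fell. Without control replicate 2 there were 6 higher and 9 lower, and without any other library there were 1 higher and 5 to 7 lower.

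Of 18 other inhibitors of the pathway, 2 rose and 3 fell, with a median log2 fold change of −0.07. With 5 of 18 called, the share was below the 46.1% of all genes tested. Il17rd, which encodes the FGF antagonist Sef, had 15.8, 16.0 and 16.3 CPM in control and 27.4, 25.5 and 25.9 CPM in senescent libraries (0.69, limma adjusted p = 7.78e-04). Lrig1, an inhibitor of EGF receptors, rose by 0.58 (adjusted p = 0.0477), with control replicate 2 at 89.5 CPM against 55.1 and 48.6 CPM in the other controls. The phosphatase gene Ptpn1 fell by 0.75 and the ETS repressor gene Erf by 0.60. Cic, named because its octamer was searched above, was at 240, 149 and 182 CPM in control and 156, 143 and 118 CPM in senescent FAPs, and its change of −0.43 did not pass (limma adjusted p = 0.0819). It passed with the replicate block (0.0227) and without control replicate 2 (0.0125). The counts were 2 and 6 with the replicate block, 5 and 1 with division by library totals, and 4 and 2 with quantile normalization. Without control replicate 2 there were 4 higher and 4 lower, without any other library 1 higher, and without senescent replicate 2 or 3 there was 1 lower.

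The summed level of 12 FAP markers was 28317 to 55780 CPM in control and 17065 to 23066 CPM in senescent libraries, and 5 of the 12 were called higher and 2 lower, with a median log2 fold change of 0.38. The 2 that fell were the collagen genes Col1a1 (15545 to 3116 CPM in the group means) and Col1a2 (12797 to 3854 CPM), which made up most of the sum in control and are named after their values were seen. Markers of other cells were far below this. The 4 leukocyte markers listed, of 8, summed to 9.78 to 10.3 CPM in control and 18.0 to 20.3 CPM in senescent libraries. Lyz2 (6.06 CPM) and Csf1r (7.56 CPM) were above 5 CPM in the senescent mean, and Itgam was at 0 in control replicates 2 and 3. Of the 4, 3 were called higher, and Csf1r was not (log2 fold change 0.15, limma adjusted p = 0.343). The 5 endothelial markers listed, of 6, summed to 19.2 to 39.5 and 23.8 to 31.2 CPM, mostly Tek. The 2 myogenic markers listed, of 6, Itga7 and Des, summed to 14.3 to 19.3 and 23.4 to 30.2 CPM. The 5 mural and glial markers listed, of 6, summed to 31.7 to 56.0 and 76.0 to 89.8 CPM, with Notch3 at 19.8 ± 7.03 and 61.7 ± 7.03 CPM (SD, n = 3 each) and Myh11 at 22.1 ± 5.36 and 17.2 ± 6.39 CPM. The leukocyte and the mural and glial sums, and the myogenic sum, were higher in each senescent library than in any control, the FAP sum was lower in each, and their part in the changes of the 10 genes was not tested.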

How the data were processed

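RNA of cultured mouse FAPs, 3 control and 3 senescent cultures, had been made into TruSeq Stranded mRNA libraries and sequenced on an Illumina HiSeq instrument. The authors deposited 1 table of this signal as CPM, made from reads per gene with edgeR (3.10, R 3.6.0) and its scaling of libraries. The build is mm10 per the submitters' processing notes, while the aligner, counting tool, annotation and use of strand are not given in the sources used here. Genes on the opposite strand overlap exons of Dusp5 and Spry1 in GENCODE M21, so their values could hold reads of both strands. Library columns were assigned from the sample labels. Each value was a whole multiple of 1 read (tolerance 0.01 read), so reads were recovered for 100% of values. The line Unspecified, which names no gene, held 0.00409% to 0.00699% of reads and was left out.

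limma (3.58.1 in R 4.3.3) compared the groups on log2(CPM + 0.5), a variance trend included. The 14776 genes tested reached 0.5 CPM in 3 or more of the 6 libraries. P-values were two-sided and Benjamini-Hochberg adjusted over all genes tested. The pseudocount shrinks the log2 fold changes of low genes. Ratios between genes were compared by exact permutation tests. The alternatives were pseudocounts of 0.1 and 1, no filter or 2 CPM, 3 other scalings (median-of-ratios factors, library totals, quantile normalization), leaving out each library, the replicate number as a block, no variance trend, and, on the recovered reads, the quasi-likelihood test of edgeR (4.0.16) and DESeq2 (1.42.0). Deviations from the group means correlated between same-numbered cultures (0.54, 0.31 and 0.21 for replicates 1, 2 and 3). Between differently numbered cultures the correlations were −0.36 to 0.15, and no test was made. Whether the numbers pair the cultures, or same-numbered cultures share animals, is not stated. The main fit and the permutation tests did not use the replicate numbers.

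Exon lengths and positions are from GENCODE M21 (GRCm38) and promoter windows from RefSeq (GRCm38.p6). The 10 genes, the pathway lists and the tests were chosen with earlier results of these data known. Named besides the 10 were the relatives listed, Ccnd1, Phlda1, Epha2, Epha4, up to 2 called genes per direction in each other list (those of smallest p, of which 1 is not reported here), Cdkn1a, Cdkn2a, Mki67, and markers of other cells above 5 CPM in a group mean. Fgfr1, Mapk3, Itgam, Pdgfb, Fgf10 and others marked in the text were chosen after their values were seen. Intervals from limma cover the spread between these cultures only.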

Additional observations from a re-analysis of the deposited data

How the results depend on the processing

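Over the 17 alternatives, Dusp6 and Dusp7 kept their direction and their call in each. Spry1 kept its call in 10, Spry4 in 10 and Etv5 in 11, and no called gene changed direction. Of the genes that were not called, Dusp5 changed sign without control replicate 1 (−0.14), without control replicate 3 (−0.08) and with edgeR's quasi-likelihood test (−0.00576), and it ranged from −0.14 to 0.60 with each library left out. Etv4 changed sign with division by library totals (0.0412), without control replicate 2 (0.32) and without senescent replicate 3 (0.00162), and it ranged from −0.57 to 0.32 with each library left out. Spred1 changed sign with division by library totals (0.0129). The count of the 10 genes called higher, 2 in all, was 0 without the variance trend and 1 with edgeR's quasi-likelihood test, and 0 to 3 with each library left out. The 1 gene past the study's threshold, Dusp6, whose change is close to that threshold, was not past it with median-of-ratios factors, quantile normalization or DESeq2 (0 each), and the count was 0 or 1 with each library left out. The log2 ratio of Dusp7 to Dusp6 ranged from −0.00353 to 0.21 and that of Etv5 to Etv4 from −0.0477 to 0.78 with each library left out.

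In the pathway lists the count of relatives called higher was 4 with median-of-ratios factors, library totals, edgeR and DESeq2, 5 with the replicate block, and 2 to 4 with each library left out. The count lower was 1 with library totals and 1 to 2 with a library left out. For the other inhibitors, 1 was higher with the filter at 2 CPM and without the variance trend, 4 with quantile normalization, 5 with library totals and 1 to 4 with a library left out. The count lower was 1 with library totals, 6 with the block and 1 to 4 with a library left out. Ligands higher were 6 with the filter at 2 CPM and 6 to 11 with a library left out. Ligands lower were 1 with library totals and 1 to 3 with a library left out. Receptors higher were 8 with library totals, 4 with quantile normalization and 2 to 5 with a library left out. Cascade genes were 10 higher and 2 lower with library totals, and 3 to 7 were lower with a library left out. Other ERK-induced genes higher were 1 with the filter at 2 CPM and without the trend, 6 with library totals, 4 with quantile normalization, the block and DESeq2, and 1 to 6 with a library left out, and 4 were lower with library totals. The stricter filter tests fewer genes, and for the other settings the cause was not tested. The replicate block changed no call among the 10 genes.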
